A study of Mus musculus with 6 samples.

Results

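Chemokines are small secreted proteins that steer leukocytes through G protein-coupled receptors, and dendritic cells (DCs), the antigen-presenting cells of the immune system, use them to draw in T cells, NK cells, monocytes and granulocytes. The genes described here are 10 chemokine genes, namely Ccl3, Ccl4, Ccl5, Ccl6, Ccl9, Ccl24, Cxcl2, Cxcl9, Cxcl10 and Cxcl16. They were chosen by symbol, without Ccl22, and each was represented by its brightest probe set (a group of probes for a transcript) with a single gene symbol. All 10 had such a probe set, out of 12394 genes measured, and 13 probe sets in all named them. CCL3, CCL4 and CCL5 are inflammatory chemokines that attract T cells, NK cells and monocytes, CCL6 and CCL9 are rodent ligands of CCR1, and CCL24 attracts eosinophils through CCR3. CXCL2 attracts neutrophils through CXCR2, CXCL9 and CXCL10 are interferon-induced ligands of CXCR3 on T and NK cells, and CXCL16 is a membrane-anchored ligand of CXCR6.

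The samples were CD11c-positive conventional DCs, sorted by flow cytometry from spleen (3 arrays) and from lymph nodes (3 arrays) of BALB/c mice, an inbred strain, with no treatment, age or sex given in the labels. Total RNA was measured on Affymetrix arrays, and nothing in the labels ties a group's arrays to separate animals or pools. The p-values thus cover the spread among arrays alone, which could be technical. Array medians were 39.4 to 40.8 intensity units in the spleen arrays and 40.2 to 41.3 in the lymph node arrays, and the number of arrays limits the precision. Levels are given as log2 intensity, differences as spleen minus lymph node on the log2 scale, and a group mean under 4 (an intensity of 16) is called near background. This limit lies above the 3 bacterial TrpnX probe sets, taken as an empty control. They averaged 2.01 to 2.20 in the spleen arrays and 2.06 to 2.19 in the lymph node arrays.

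The labels were checked against marker genes before the chemokines were compared. The DC genes Itgax (9.93 ± 0.22 in spleen arrays, 10.90 ± 0.06 in lymph node arrays, SD, n = 3 each), Zbtb46 (8.90 ± 0.24 and 9.24 ± 0.02) and Flt3 (7.69 ± 0.48 and 8.23 ± 0.17) were well above background in both groups. The summed intensity of 8 conventional DC markers was lower in the arrays labelled spleen (10484 to 14303, against 17279 to 17878 in those labelled lymph node), and 2 of the 8 passed as lower in limma, Itgax (-0.97, adjusted p = 0.0310) and Ciita. The part of this in the chemokine values was not tested. Ccl22, Ccr7 and Fscn1 mark migratory DCs, which reach lymph nodes from tissues, yet each of the 3 was higher in the spleen-labelled arrays. The summed intensity of 8 migratory and mature DC markers was 7205 to 10445 in the spleen arrays and 5002 to 6046 in the lymph node arrays. The groups are therefore called by their labels throughout. Whether the organ labels were exchanged was not tested, and an exchange would turn the sign of every difference given here, that of Cxcl16 included. The 24 probe sets of bacterial poly-A control transcripts, added during preparation, also averaged 8.41 to 9.06 in the arrays labelled spleen and 7.39 to 7.96 in those labelled lymph node. In bulk RNA, fewer cells of a type and less RNA per cell cannot be told apart.

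The comparison asked how conventional DCs of the 2 organs differ. Of the 10 chemokine genes, Cxcl16 rose in the arrays labelled spleen, and 0 passed as lower (limma, adjusted p threshold of 0.05 over all genes), where 3.40% of all genes passed, 2.03% as higher and 1.37% as lower. At an unadjusted p under 0.05 there were 4, Cxcl16 and Cxcl2 higher and Ccl3 and Ccl4 lower, where 19.0% of all genes had such a p. Groups did not overlap for 2 of the 10, Cxcl16 and Ccl4, against 24.5% of all genes. The median difference of the 10 genes was 0.20, with 6 positive and 4 negative, beside a median of -0.01 over all genes. Ccl24 was near background in both groups and Cxcl2 in the lymph node arrays only, and the other 8 had both group means at 4 or above.

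**Figure D1:**
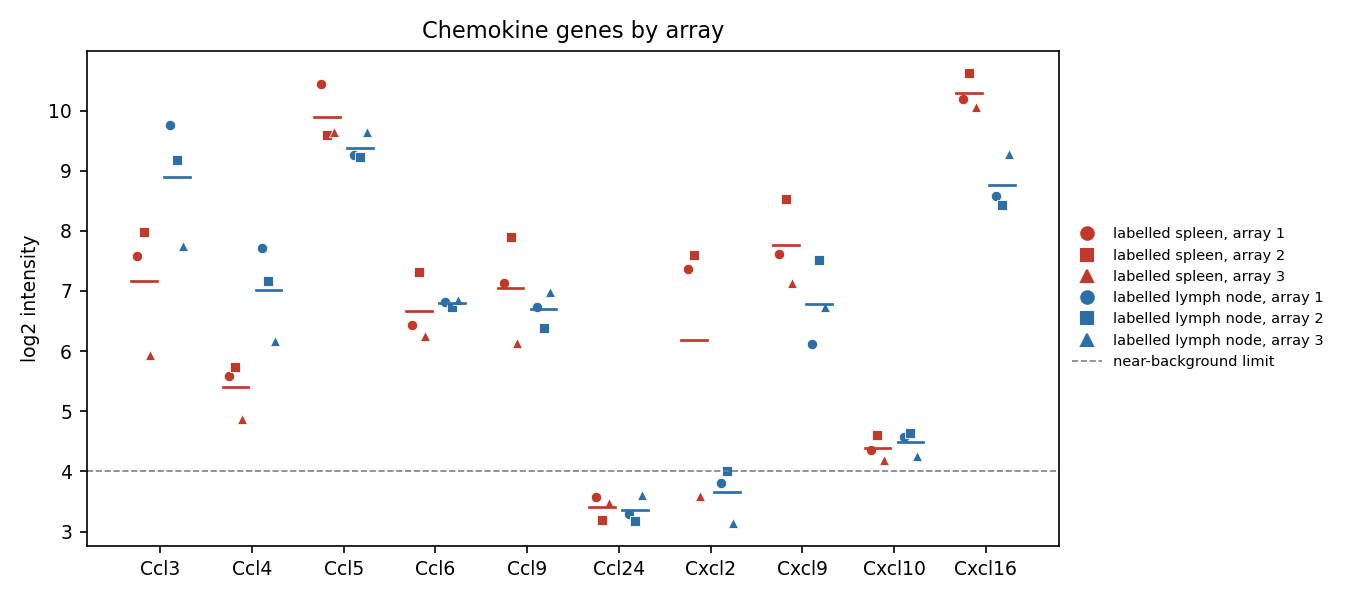
Log2 intensity of the 10 chemokine genes in each array (red, labelled spleen; blue, labelled lymph node; marker shape gives the array number; short bars are group means; the dashed line at 4 is the near-background limit). The 3 spleen values of Cxcl16, 10.06 to 10.62, lie above its 3 lymph node values, 8.43 to 9.28, while Cxcl2 is high in only 2 of the 3 spleen arrays.

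Cxcl16 encodes a chemokine that is held on the cell surface, where it also binds oxidised lipids, and is released by proteases. Its log2 intensity was 10.19, 10.62 and 10.06 in spleen arrays 1, 2 and 3, against 8.58, 8.43 and 9.28 in lymph node arrays 1, 2 and 3. Every spleen array was above every lymph node array. The spleen mean was 10.29 ± 0.30 and the lymph node mean 8.76 ± 0.45 (SD, n = 3 each), a difference of 1.53 ± 0.26 (SE; 95% interval 0.91 to 2.14) or 2.88-fold (limma adjusted p = 0.0304). The call was lost without spleen array 1 (adjusted p = 0.0826), spleen array 2 (0.0577), lymph node array 1 (0.134) or lymph node array 2 (0.124), with differences of 1.36 to 1.58, and with the poly-A control level as a covariate (1.66, adjusted p = 0.880).

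A second Cxcl16 probe set, whose suffix (_s_at) marks probes that can match more than 1 transcript, moved the same way. It gave 8.30, 9.10 and 8.34 in the spleen arrays, against 7.29, 7.29 and 7.45 in the lymph node arrays, again with no overlap. In a fit over all probe sets, in which 2.78% passed, its difference was 1.24 ± 0.24 (SE, adjusted p = 0.0434) and that of the brighter probe set passed as well (adjusted p = 0.0329). The arrays labelled spleen were also higher in the summed intensity of plasmacytoid DC markers (2243 to 6344, against 611 to 1514 in lymph node arrays; 3 of 8 measured genes passed as higher) and of migratory and mature DC markers, of which 4 of 8 passed as higher. Of the plasmacytoid DC markers 5 did not pass, and the defining marker Siglech had no probe set. The part of plasmacytoid, migratory or mature DCs in the Cxcl16 difference was not tested.

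Over the 6 arrays, the 3 genes with profiles nearest to Cxcl16, by the root mean square difference of mean-centred log2 values among genes at or above the median level, were Mx1 (0.19), Plcb4 (0.22) and Oxct1 (0.23). Mx1 is an interferon-induced antiviral GTPase gene, Plcb4 encodes a phospholipase C and Oxct1 an enzyme of ketone body use. Mx1 was at 8.32, 8.53 and 8.39 in the spleen arrays, against 6.94, 6.90 and 7.34 in the lymph node arrays. These 3 genes were picked for likeness in the same arrays, so their own differences add no support. Cxcr6, the receptor of CXCL16, differed by -0.20 (95% interval -0.98 to 0.59). The gene of its main sheddase, Adam10, picked after its values were seen, differed by 0.44 ± 0.17 (SE, limma adjusted p = 0.208).

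Ccl3 and Ccl4, neighbouring genes in the RefSeq assembly that encode a closely related pair of inflammatory chemokines, had lower values in the arrays labelled spleen. Ccl3 was at 7.59, 7.98 and 5.94 in spleen arrays 1, 2 and 3, against 9.76, 9.17 and 7.74 in lymph node arrays 1, 2 and 3. Ccl4 was at 5.58, 5.74 and 4.87 in the spleen arrays, against 7.71, 7.16 and 6.17 in the lymph node arrays. In both groups the array numbered 3 was the lowest for both genes, so that lymph node array 3 overlapped the spleen arrays for Ccl3 and lay just above them for Ccl4. The difference was -1.72 ± 0.64 (SE; 95% interval -3.20 to -0.24) for Ccl3 and -1.62 ± 0.40 (95% interval -2.55 to -0.68) for Ccl4, and neither passed (limma adjusted p = 0.198 and 0.0734).

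The arrays numbered 3 and lymph node array 1 weighed on both results. Without lymph node array 1 the difference was -1.28 for Ccl3 (limma adjusted p = 0.495) and -1.27 for Ccl4 (adjusted p = 0.236). Without spleen array 3 the difference was -1.10 for Ccl3 (adjusted p = 0.295) and -1.35 for Ccl4 (adjusted p = 0.126). Without lymph node array 3, Ccl4 passed with a difference of -2.04 (adjusted p = 0.0322). Without both arrays numbered 3, Ccl3 (-1.68, adjusted p = 0.0375) and Ccl4 (-1.77, adjusted p = 0.0234) both passed, as did 479 of all genes. Array 3 was the lowest of its group for both genes, so passing without it adds no support. With the poly-A control level as a covariate the differences turned to 1.07 ± 1.01 for Ccl3 and 0.06 ± 0.68 for Ccl4 (SE, limma adjusted p = 0.934 and 0.997). In that fit 0 of all genes passed. The poly-A level itself separates the groups, so the fit cannot tell it well from the organ label. The summed intensity of the neutrophil markers was also lower in the arrays labelled spleen. It was 155, 91 and 88 in spleen arrays 1, 2 and 3, against 204, 697 and 749 in lymph node arrays 1, 2 and 3. The 3 lymph node arrays are too few to relate these sums to Ccl3 and Ccl4. S100a9, which did not pass (adjusted p = 0.0536), alone had intensities of 453.9 and 587.6 in lymph node arrays 2 and 3. Of the 8 genes 1 passed as lower, Camp, an antimicrobial peptide gene near background in the spleen arrays (-1.37, limma adjusted p = 0.0425). S100a8, which did not pass (adjusted p = 0.0569), was at 3.05 ± 0.61 in spleen arrays and 5.67 ± 1.24 in lymph node arrays (SD, n = 3 each). The part of neutrophils in the Ccl3 and Ccl4 values was not tested. Ccrl2, an atypical receptor gene picked after its values were seen, was likewise lowest in the array numbered 3 of each group, at 8.66, 9.12 and 6.17 in spleen arrays and 9.33, 8.88 and 7.27 in lymph node arrays.

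Cxcl2 was the member whose spleen arrays differed most from each other. It was at 7.36 and 7.60 in spleen arrays 1 and 2 but at 3.60 in spleen array 3, against 3.80, 4.01 and 3.14 in lymph node arrays 1, 2 and 3. Spleen array 3 lay inside the range of the lymph node arrays, near background. The mean difference of 2.54 ± 0.96 (SE; 95% interval 0.31 to 4.77) did not pass (limma adjusted p = 0.205). Without spleen array 3 it was 3.83 (limma adjusted p = 0.00405), in a fit where 475 of all genes passed. That array was the only spleen array among the lymph node values, so passing without it adds no support. The size of the Cxcl2 difference rests on lymph node values near background. Cxcl1, the neighbouring gene for another CXCR2 ligand, picked after its values were seen, was likewise high in spleen arrays 1 and 2 only, with 8.24, 7.40 and 3.77 in the spleen arrays and 3.12, 2.58 and 2.98 in the lymph node arrays (difference 3.57 ± 1.00 SE, adjusted p = 0.103). Cxcr2, the receptor gene of neutrophils, was near background in both groups (3.33 ± 0.22 in spleen arrays, 3.23 ± 0.39 in lymph node arrays, SD, n = 3 each).

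**Figure D2:**
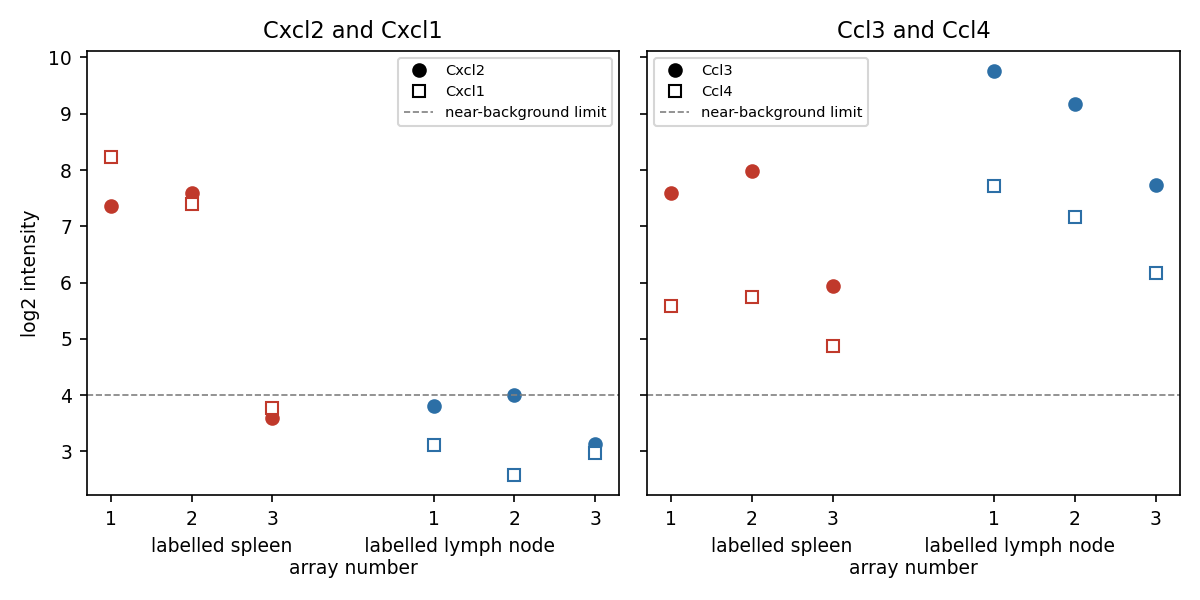
Log2 intensity of Cxcl2 (filled circles) and Cxcl1 (open squares) on the left and of Ccl3 (filled circles) and Ccl4 (open squares) on the right, in the 3 arrays labelled spleen (red) and the 3 labelled lymph node (blue), with the near-background limit of 4 dashed. Cxcl2 and Cxcl1 stand at 7.36 to 8.24 in spleen arrays 1 and 2 and at 3.60 and 3.77 in spleen array 3, while Ccl3 and Ccl4 are lowest in array 3 of both groups.

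RefSeq promoter sequence (GRCm38.p6, from C57BL/6J mice, not the BALB/c strain measured) was held for 6 of the 10 members, Ccl3, Ccl6, Ccl9, Cxcl2, Cxcl9 and Cxcl10, and for Cxcl1. The 250 bases before the start are shown for Cxcl2 and Cxcl1, which were both high in spleen arrays 1 and 2 only, and for Ccl3, whose values were lower in the arrays labelled spleen. Capitals mark matches, on either strand, to the kappaB consensus of the NF-kB factors. The regions are chr5:90903649-90903898 (plus strand) for Cxcl2, chr5:90890995-90891244 (plus strand) for Cxcl1 and chr11:83649379-83649628 (minus strand) for Ccl3.
Cxcl2: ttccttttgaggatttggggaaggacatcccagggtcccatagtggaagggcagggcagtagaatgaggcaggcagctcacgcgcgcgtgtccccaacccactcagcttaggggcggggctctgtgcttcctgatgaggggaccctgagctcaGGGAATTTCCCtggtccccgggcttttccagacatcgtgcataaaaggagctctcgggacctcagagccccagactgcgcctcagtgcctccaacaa
Cxcl1: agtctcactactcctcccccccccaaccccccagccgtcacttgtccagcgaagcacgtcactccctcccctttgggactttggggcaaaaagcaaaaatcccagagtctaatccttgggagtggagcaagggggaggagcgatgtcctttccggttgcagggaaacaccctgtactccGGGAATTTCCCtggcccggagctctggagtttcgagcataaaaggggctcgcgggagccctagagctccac
Ccl3: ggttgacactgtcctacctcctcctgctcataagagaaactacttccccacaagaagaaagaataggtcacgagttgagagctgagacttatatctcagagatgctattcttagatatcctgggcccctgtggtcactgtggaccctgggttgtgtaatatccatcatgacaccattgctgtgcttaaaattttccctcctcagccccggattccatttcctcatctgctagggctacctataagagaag
Cxcl2 and Cxcl1 each held 2 kappaB matches that overlap by all but 1 base, starting 97 and 96 bases before the start in Cxcl2 and 71 and 70 bases before it in Cxcl1, with the same letters. The windows of Ccl3 and Ccl6 held 0 matches, and that of Ccl9, which showed no difference past the threshold, held 1, starting 35 bases before the start. A kappaB match was present in 7.25% of the 32851 promoter windows of this length, and a match is only a description of the letters.

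Cxcl9 and Cxcl10, the interferon-induced ligands of CXCR3, both stayed short of the threshold. Cxcl9 was at 7.61, 8.53 and 7.14 in spleen arrays 1, 2 and 3, against 6.12, 7.52 and 6.73 in lymph node arrays 1, 2 and 3. Lymph node array 2 lay above spleen array 3, so the groups overlapped, and the difference of 0.98 ± 0.44 (SE; 95% interval -0.04 to 1.99) did not pass (limma adjusted p = 0.282). Cxcl10 was at 4.36, 4.61 and 4.19 in the spleen arrays, against 4.58, 4.64 and 4.26 in the lymph node arrays, just above the near-background limit in all 6. Its difference was -0.11 (95% interval -0.54 to 0.32; adjusted p = 0.818). The receptor gene Cxcr3 was at 7.57, 7.11 and 8.50 in the spleen arrays and 4.39, 6.18 and 5.86 in the lymph node arrays, without overlap, and narrowly missed the threshold (2.25 ± 0.51 SE, adjusted p = 0.0602). T cells carry this receptor, and the summed intensity of 7 T cell markers was 405 to 976 in the spleen arrays and 93 to 366 in the lymph node arrays. All 7 differences were positive, but only 1 gene passed as higher, Cd28, which was near background in the lymph node arrays. Its intensity was 312.9, 108.2 and 305.7 in spleen arrays 1, 2 and 3, against 9.1, 5.0 and 47.8 in the lymph node arrays. Without Cd28 the T cell sums would overlap between the groups. The defining marker Cd3e overlapped between the groups and did not pass (limma adjusted p = 0.581). It was at 7.10, 3.86 and 5.29 in the spleen arrays and 4.22, 3.86 and 5.36 in the lymph node arrays. The T cell sums were 976, 405 and 587 in spleen arrays 1, 2 and 3, and those of the plasmacytoid DC markers were 2243, 2465 and 6344. In the lymph node arrays the plasmacytoid DC sums were 611 to 1514. The part of either cell type in the Cxcr3 values was not tested.

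The promoter windows of this pair are shown because the genes share an inducer and a receptor. They are chr5:92328080-92328329 for Cxcl9 and chr5:92348890-92349139 for Cxcl10, both on the minus strand, with capitals as above.
Cxcl9: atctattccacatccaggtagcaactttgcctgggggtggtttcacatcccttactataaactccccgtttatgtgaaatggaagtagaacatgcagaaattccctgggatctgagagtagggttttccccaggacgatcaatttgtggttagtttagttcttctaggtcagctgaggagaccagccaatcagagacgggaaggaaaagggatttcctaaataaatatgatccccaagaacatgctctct
Cxcl10: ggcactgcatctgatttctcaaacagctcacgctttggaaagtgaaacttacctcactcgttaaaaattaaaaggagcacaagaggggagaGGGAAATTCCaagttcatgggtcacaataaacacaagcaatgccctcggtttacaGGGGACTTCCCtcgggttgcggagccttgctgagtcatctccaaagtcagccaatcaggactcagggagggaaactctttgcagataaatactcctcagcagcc
The Cxcl10 window held 3 kappaB matches, starting 159, 104 and 103 bases before the start, the last 2 overlapping. The Cxcl9 window held 0, which says only that these letters are not in that stretch.
Of the other interferon-gamma response genes, 2 of 11 measured passed as higher, Ido1 (2.91 ± 0.22, adjusted p = 0.00350) and Gbp3 (1.53 ± 0.29, adjusted p = 0.0351), and 1 as lower, Ciita, the transactivator of MHC class II genes (-1.45 ± 0.22, adjusted p = 0.0196; SE in each case, limma). Their median difference was 0.13. Ido1 was near background in the lymph node arrays.

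Ccl5, a chemokine of T cells, NK cells and DCs, was bright in every array. It was at 10.44, 9.60 and 9.64 in spleen arrays 1, 2 and 3, against 9.26, 9.22 and 9.65 in lymph node arrays 1, 2 and 3. Spleen array 1 stood above the other 5, which spanned 9.22 to 9.65 with the groups overlapping. The difference was 0.52 ± 0.26 (SE; 95% interval -0.09 to 1.12; limma adjusted p = 0.344), and 0.24 without spleen array 1. That array also had the highest summed intensity of T cell markers (976, against 405 and 587 in the other spleen arrays) and of NK cell markers (1625, against 415 and 584). The NK cell sums of the lymph node arrays were 376 to 865, and 0 of 7 NK cell markers passed in limma, with 0 at an unadjusted p under 0.05. The part of those cells in Ccl5 was not tested.

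Ccl6 and Ccl9, rodent chemokines of myeloid cells whose genes are neighbours, showed no difference past the threshold. Ccl6 was at 6.43, 7.32 and 6.25 in the spleen arrays, against 6.82, 6.74 and 6.85 in the lymph node arrays (difference -0.14, 95% interval -0.78 to 0.51; limma adjusted p = 0.849). Ccl9 was at 7.13, 7.89 and 6.14 in the spleen arrays, against 6.73, 6.39 and 6.98 in the lymph node arrays (difference 0.35, 95% interval -0.60 to 1.31; adjusted p = 0.716). For both genes the lymph node arrays lay inside the range of the spleen arrays, where array 2 was the highest and array 3 the lowest. Markers of macrophages, which express both genes, had overlapping sums (498 to 928 in spleen arrays, 736 to 1743 in lymph node arrays), with 0 of 8 past the threshold in limma and 1 at an unadjusted p under 0.05.

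The probe sets of Ccl6 disagreed. The dimmer one, with the same suffix, was at 3.38, 4.28 and 3.32 in the spleen arrays, near background, against 5.28, 4.98 and 4.48 in the lymph node arrays, with no overlap (difference -1.25 ± 0.31 SE, adjusted p = 0.0851 over probe sets). A direction for Ccl6 therefore depends on the probe set. The second probe set of Ccl9 was near background in both groups, at 3.87 ± 0.29 in spleen arrays and 3.66 ± 0.37 in lymph node arrays (SD, n = 3 each), and its difference of 0.20 ± 0.24 (SE) had the same sign as that of the brighter one.

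**Figure D3:**
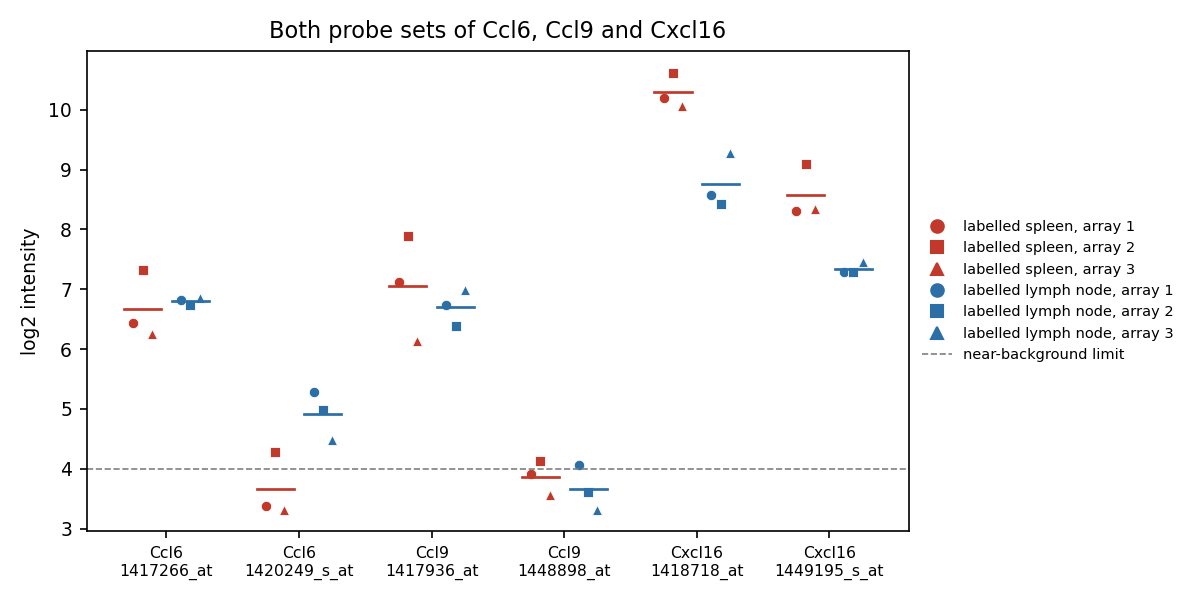
Log2 intensity of both probe sets of Ccl6, Ccl9 and Cxcl16 in each array (red, labelled spleen; blue, labelled lymph node; shapes give the array number, bars the group means, and the dashed line the near-background limit of 4). The Cxcl16 pair separates the groups in the same direction, while the Ccl6 pair does so only in its dimmer probe set.

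Ccl24, whose product attracts eosinophils, was at 3.57, 3.19 and 3.47 in the spleen arrays, against 3.29, 3.17 and 3.61 in the lymph node arrays. All 6 values were near background with overlapping groups (difference 0.05, 95% interval -0.38 to 0.49; limma adjusted p = 0.920), so these arrays give no measure of its change. Ccr3, its receptor gene, was likewise near background in both groups (1.91 ± 0.25 in spleen arrays, 3.39 ± 1.47 in lymph node arrays, SD, n = 3 each).

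Among the other chemokine genes, 24 of 27 listed were measured, 2 passed as higher in the arrays labelled spleen and 0 as lower (6 and 1 at an unadjusted p under 0.05), with a median difference of 0.12, and 14 were near background in both groups. The 2 were Ccl22 and Ccl17, the ligands of CCR4, with differences of 4.97 ± 0.18 and 0.94 ± 0.17 (SE, limma adjusted p = 7.92e-05 and 0.0343). Cxcl16 thus stood between them in size. Xcl1, the chemokine gene that attracts XCR1-bearing DCs, picked after its values were seen, was at 9.14, 8.33 and 7.17 in the spleen arrays and 4.29, 3.89 and 6.93 in the lymph node arrays, without overlap, and did not pass (3.17 ± 0.81 SE, adjusted p = 0.0801).

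**Figure D4:**
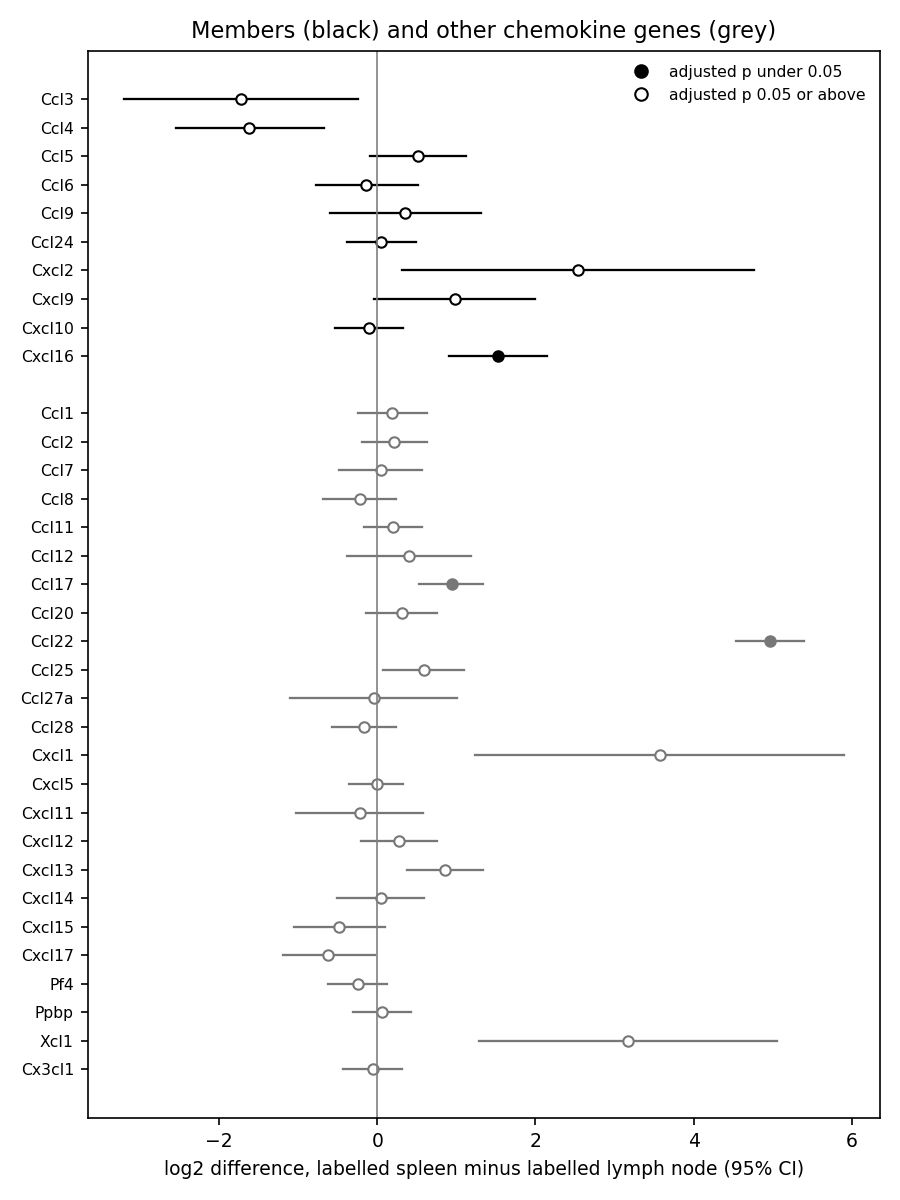
Log2 difference, labelled spleen minus labelled lymph node, with its 95% confidence interval from limma, for the 10 members (black) and 24 other chemokine genes (grey); filled points passed an adjusted p of 0.05. Cxcl16, Ccl17 and Ccl22 are the filled points, and Cxcl1, Cxcl2 and Xcl1 have differences of 2.54 to 3.57 with wide intervals.

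Genes that act on chemokines were compared from lists. Of 5 atypical receptor genes, which bind chemokines without classical signalling, 1 was lower, Ackr1, at 4.46 ± 0.36 in spleen arrays and 5.57 ± 0.18 in lymph node arrays (SD, n = 3 each; adjusted p = 0.0404). Of 8 protease genes 1 was lower, Mmp12, the macrophage elastase (-2.79 ± 0.49 SE, adjusted p = 0.0316), and 0 were higher (1 at an unadjusted p under 0.05). Of 9 transcription factor genes known to act at chemokine genes 0 passed in limma, with 1 lower and 0 higher at an unadjusted p under 0.05. The 3 with the smallest adjusted p were Stat6 (-0.39), Irf3 (-0.55) and Stat3 (0.37), with adjusted p from 0.213 to 0.301. Of 5 measured receptor genes of the members 0 passed in limma. Cxcr3 (adjusted p = 0.0602), Ccr3 (0.26) and Ccr1 (0.548) had the smallest. Ccr1 differed by 0.63 and was near background in both groups.

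The members differed in how far 1 array set their value. Over all genes, 47 to 475 of 12394 passed in these fits, against 421 with all 6 arrays, so a lost call need not be particular to a gene. With 1 array left out, Cxcl16 lay between 1.36 and 1.78 and passed in 2 of 6 fits, and Cxcl2 between 1.83 and 3.83 and passed in 1. Ccl3 lay between -2.29 and -1.10 and passed in 0, while Ccl4 lay between -2.04 and -1.27 and passed in 1. Cxcl9, between 0.59 and 1.34, and Ccl5, between 0.24 and 0.66, were positive in all 6 fits and passed in 0. Ccl6, Ccl9 and Ccl24 changed sign in at least 1.

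**Figure D5:**
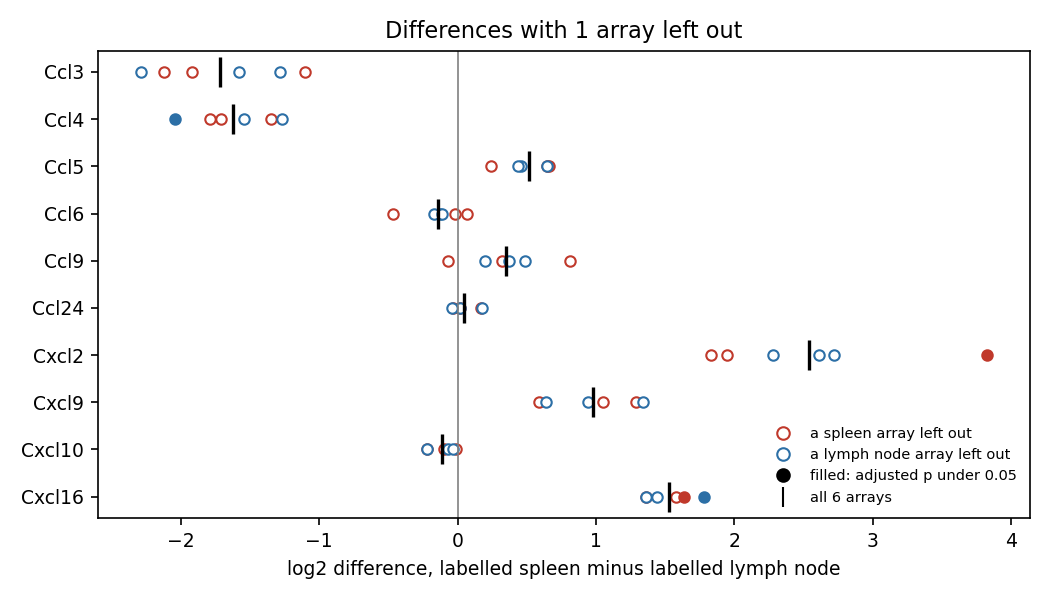
Log2 difference, labelled spleen minus labelled lymph node, of each member with all 6 arrays (black bars) and with 1 array left out (red, a spleen array; blue, a lymph node array; filled where the adjusted p was under 0.05). Cxcl2 moves to 3.83 without spleen array 3, and Cxcl16 passes in 2 of the 6 fits.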

How the data were processed

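Gene expression of sorted CD11c-positive DCs was measured on 6 arrays, 3 per organ, grouped by sample title. The deposited values are probe set intensity on a linear scale, 1 column per array. Per the submitters' processing notes the authors used RMA and limma. Versions are not given in the sources used here. The step from RMA's log2 output back to a linear scale, and any floor or scaling, are unknown. RNA was amplified from a small input, per the labels' protocols, and no detection calls were used.

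Of 22690 probe sets, 20393 had 1 symbol in the array annotation, 691 several and 1606 none. Of those with 1, 20364 were found by Entrez identifier in RefSeq (GRCm38.p6), which changed 0 symbols. Each of 12394 genes took its probe set with the highest mean. The intensity was transformed to log2 with no filter and compared, spleen minus lymph node, in limma 3.58.1 (R 4.3.3; lmFit and eBayes), with two-sided p-values adjusted over all genes by Benjamini-Hochberg and a threshold of 0.05. The functions were tested on simulated data. The members, lists and alternatives were chosen with earlier results of these data known. Named are all 10 members, the genes past the threshold in each list or else up to 3 with the smallest adjusted p, and the 3 nearest profiles of a member past the threshold. The defining markers of conventional DCs, migratory DCs, plasmacytoid DCs, T cells and neutrophils are also named, while those of NK cells and macrophages are not. Cxcl1, Xcl1, Ccrl2, Adam10, Cd28, Camp, Cxcr6 and Cxcr2 fall outside these rules and were named after their values were seen. Same-numbered arrays were checked for pairing, and their deviations from the group means correlated by 0.02, 0.24 and 0.16 over genes for numbers 1, 2 and 3. With 3 arrays per group and labels that do not say what the numbers share, this cannot decide whether they are paired. The main fit treats the arrays as unpaired.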

Additional observations from a re-analysis of the deposited data

How the results depend on the processing

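Median centring, a second quantile normalization, log2 of the value plus 16, eBayes with trend and robust, the mean of all probe sets, leaving out suffixed probe sets and the fit over all probe sets changed no call and no sign among the members. The filter at the median level changed none among the 7 members it left, and counted 1 other chemokine gene of 2 in place of 2. Array weights gave 764 genes, 2 members, Ccl4 among them (-1.77, adjusted p = 0.0426), and 5 other chemokine genes. The labels do not say what array numbers share, and the replicate block gave 518 genes and 3 members, with Ccl3 (-1.72, adjusted p = 0.0171) and Ccl4 (-1.62, adjusted p = 0.0174) passing, and it changed no other member's call. Only spleen array 2 and lymph node array 2, and both arrays 3, correlated best with their own number. Without both arrays numbered 3 there were 479 genes, 4 members and 4 other chemokine genes. Ccl3 (-1.68), Ccl4 (-1.77) and Cxcl2 (3.58, limma adjusted p = 0.00528) joined Cxcl16, and Ccl6 turned to 0.09. Array 3 was the lowest of its group for Ccl3, Ccl4 and Cxcl2, so this adds no support. With the poly-A control level as covariate limma called 0 genes (701 at an unadjusted p under 0.05), 0 members (2 unadjusted) and 0 other chemokine genes (3 unadjusted). That level separates the groups and leaves 3 residual degrees of freedom. The median of the members was then 0.99, Cxcl16 lost its call at 1.66, and the signs turned for Ccl3 (1.07), Ccl4 (0.06), Ccl5 (-0.14), Ccl6 (0.92), Ccl24 (-0.48) and Cxcl10 (0.44), for causes that were not tested. At a threshold of 0.01, 63 genes, 0 members (4 at an unadjusted p under 0.05) and 1 other chemokine gene passed, and Cxcl16 (1.53) did not. With 1 array left out, in limma, the counts were 47 to 475 genes, 0 to 2 members and 1 to 3 other chemokine genes, lowest for genes without lymph node array 2 (47), lymph node array 1 (56) and spleen array 1 (130), and the median of the members 0.05 to 0.36. Over the same fits Cxcl16 lay between 1.36 and 1.78, Cxcl2 between 1.83 and 3.83, Ccl4 between -2.04 and -1.27, Ccl6 between -0.47 and 0.07, Ccl9 between -0.07 and 0.81 and Ccl24 between -0.04 and 0.18. Signal over background limits Ccl24, Cxcl10 and the lymph node values of Cxcl2.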
